A study of Mus musculus with 8 samples.

Results

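The genes described here encode the proteins that license replication origins and copy DNA at the fork. They were listed by name from the known function of their products, a list drawn up with earlier results of these data known, and comprise 42 of the 54532 genes listed for each library. All 42 were matched to 1 gene identifier each, and all 42 were among the 12704 genes tested, with mean levels from 19.3 to 474.0 CPM (counts scaled to 1000000 counts of the tested genes by the TMM method). The cells were 4T1, a mouse mammary tumor line that arose in a BALB/c mouse and is used as a model of triple-negative breast cancer. One line stably carried a single short hairpin RNA against Mcts1, the gene of the translation regulator and oncogene MCT-1 (shMCT-1), and the other a scramble hairpin. Both lines were transfected and kept under puromycin, and whether either one was a clone is not given in the sources used here. Each line received an antibody against the mouse IL-6 receptor (anti-IL-6R, 100 ng/ml) or IgG for 48 h, which gave 4 groups of 2 libraries of poly(A)-selected RNA, 8 libraries in all. The libraries of a group were described as independent biological replicates, with no further account of their origin.

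Replication is licensed before S phase, when the origin recognition complex, Cdc6 and Cdt1 load the hexameric MCM helicase onto DNA, and geminin then binds Cdt1 so that no origin is licensed again. In S phase Cdc45 and the GINS complex join the helicase, polymerase alpha-primase lays down primers, and polymerases delta and epsilon extend them, held by the PCNA clamp that replication factor C loads. Many of these genes are transcribed under E2F control as cells approach S phase, so their mRNA is widely read as a mark of proliferation in tumor cells.

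Library totals lay between 24100084 and 33063570 counts in scramble and between 19839299 and 23448587 in shMCT-1. Mcts1 itself was at 15, 11.8, 12.6 and 13.2 CPM in scramble and 6.42, 6.29, 6.88 and 4.99 CPM in shMCT-1 (the IgG pair first, here and in all following lists), which was a log2 fold change (log2FC) of -1.08 ± 0.17 (SE, adjusted p = 0.000676) within IgG and -1.13 ± 0.17 (adjusted p = 0.000557) within anti-IL-6R by edgeR's quasi-likelihood test. Of 5 epithelial markers listed (Epcam, Krt8, Krt18, Krt14 and Cdh1), 4 were called higher in shMCT-1 across treatments and 1 was not called. Krt8 and Krt18 were at 621.4 CPM or more in each library. Epcam was 3.67 to 4.85 CPM in scramble and 50.2 to 55.3 CPM in shMCT-1. Of 8 markers of stromal and immune cells only Cd68 (2.62 to 3.32 and 5.50 to 7.70 CPM) and Cdh5 (0.00 to 0.124 and 0.465 to 1.48 CPM) passed the filter, with Cd3e and Adgre1 at 0 throughout. The share of mitochondrially encoded counts was 1.97% to 2.52% in scramble and 0.84% to 1.53% in shMCT-1, and without the mitochondrial genes the numbers of replication genes called were 17 within IgG, 17 within anti-IL-6R and 24 across treatments, as with them. Because RNA was taken from whole cultures, a smaller share of cells in S phase and less RNA per cell cannot be told apart.

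The replication genes differed between the shMCT-1 and scramble lines in both directions and by small amounts. With 1 line of each kind, silencing of MCT-1 and other differences between the lines cannot be told apart. Across both treatments, 15 of the 42 genes rose and 9 fell in the shMCT-1 line at an adjusted p under 0.05, against 69.0% of all tested genes called (35.0% higher and 34.0% lower) and 72.5% of those in the expression range of the 42. The genes that fell most were Orc3, Pcna, Pole and Pola1, and those that rose most were Rpa3, Pola2, Rfc2 and Mcm6. Within IgG alone 10 genes were higher and 7 lower, beside 54.4% of all tested genes (28.3% higher and 26.2% lower), and within anti-IL-6R alone 11 were higher and 6 lower, beside 54.3% (26.9% and 27.3%). The count within anti-IL-6R was 11 without scramble + anti-IL-6R replicate 1 and 8 without replicate 2 of that group. Among tested genes in the expression range of the 42, the shares called were 57.6% within IgG and 57.2% within anti-IL-6R, and at an unadjusted p under 0.05, 22 members passed within IgG and 18 within anti-IL-6R, beside 60.2% and 60.3% of tested genes. With this filter the share among replication genes lay below the background in each comparison. With no filter on low counts it lay above, with 15 of 42 called within IgG beside 27.6% of tested genes, 13 within anti-IL-6R beside 28.3% and 21 across treatments beside 37.1%.

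Both treatments gave much the same picture, from separate libraries. In both, 9 members that rose and 6 that fell were called, 15 in all, while 46.3% of tested genes were called in both in 1 direction. Of the 15, Orc3, Mcm3, Mcm6, Pcna, Rfc2, Rpa3, Pola2 and Pole kept both calls in every alternative fit. Within anti-IL-6R, Orc1, Orc6, Mcm10, Cdc45, Rpa1, Pola1 and Fen1 lost the call on leaving out 1 or another anti-IL-6R library. Orc1, Orc6 and Rpa1 also lost it with no filter (adjusted p = 0.0541 to 0.0652 by edgeR). Orc6 lost it too with counts thinned to the smallest library (log2FC 0.24, adjusted p = 0.055 by edgeR). Within IgG, Mcm10, Rpa1 and Fen1 lost it on leaving out 1 or another shMCT-1 + IgG library, and Mcm10 with no filter (0.0957). The sign agreed in 36 of 42, a count given without the share over all tested genes, and both comparisons set the same lines against each other. Gins1 and Rfc5 were called within IgG only and Mcm2 and Rpa2 within anti-IL-6R only, and for none of the 42 was the difference between the 2 treatments itself called (0 genes by the interaction term in edgeR, 0 in DESeq2, and 0 of the 42 at an unadjusted p under 0.05, where 2.48% of tested genes passed). In 27 of 42 genes the 4 shMCT-1 libraries did not overlap the 4 scramble libraries, compared with 64.4% of tested genes.

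The median log2FC of the 42 was 0.07 within IgG and 0.06 within anti-IL-6R, with 0.01 for all tested genes in both. Without shMCT-1 + IgG replicate 2 the median within IgG was 0.00. The median size of the change, regardless of sign, was 0.19 within IgG and 0.16 within anti-IL-6R, against 0.41 and 0.40 for all tested genes. Across treatments, 23 of the 42 changed by a log2 value under 0.2, as did 27.1% of tested genes. Sizes were not compared with genes in the expression range of the 42. All tested genes also varied more between replicates (median SD 0.13 on the log2 scale, against 0.07 for the 42). The summed level of the 42 genes was 5340.3 to 5422.7 CPM in the scramble libraries and 5476.5 to 5634.3 CPM in the shMCT-1 libraries. Thus the summed level after TMM scaling was slightly higher in each shMCT-1 library while individual genes moved apart. The TMM factors also differed between the lines (1.002 to 1.027 in scramble and 0.976 to 0.9859 in shMCT-1), so this order of the sums depends on the scaling.

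**Figure D1:**
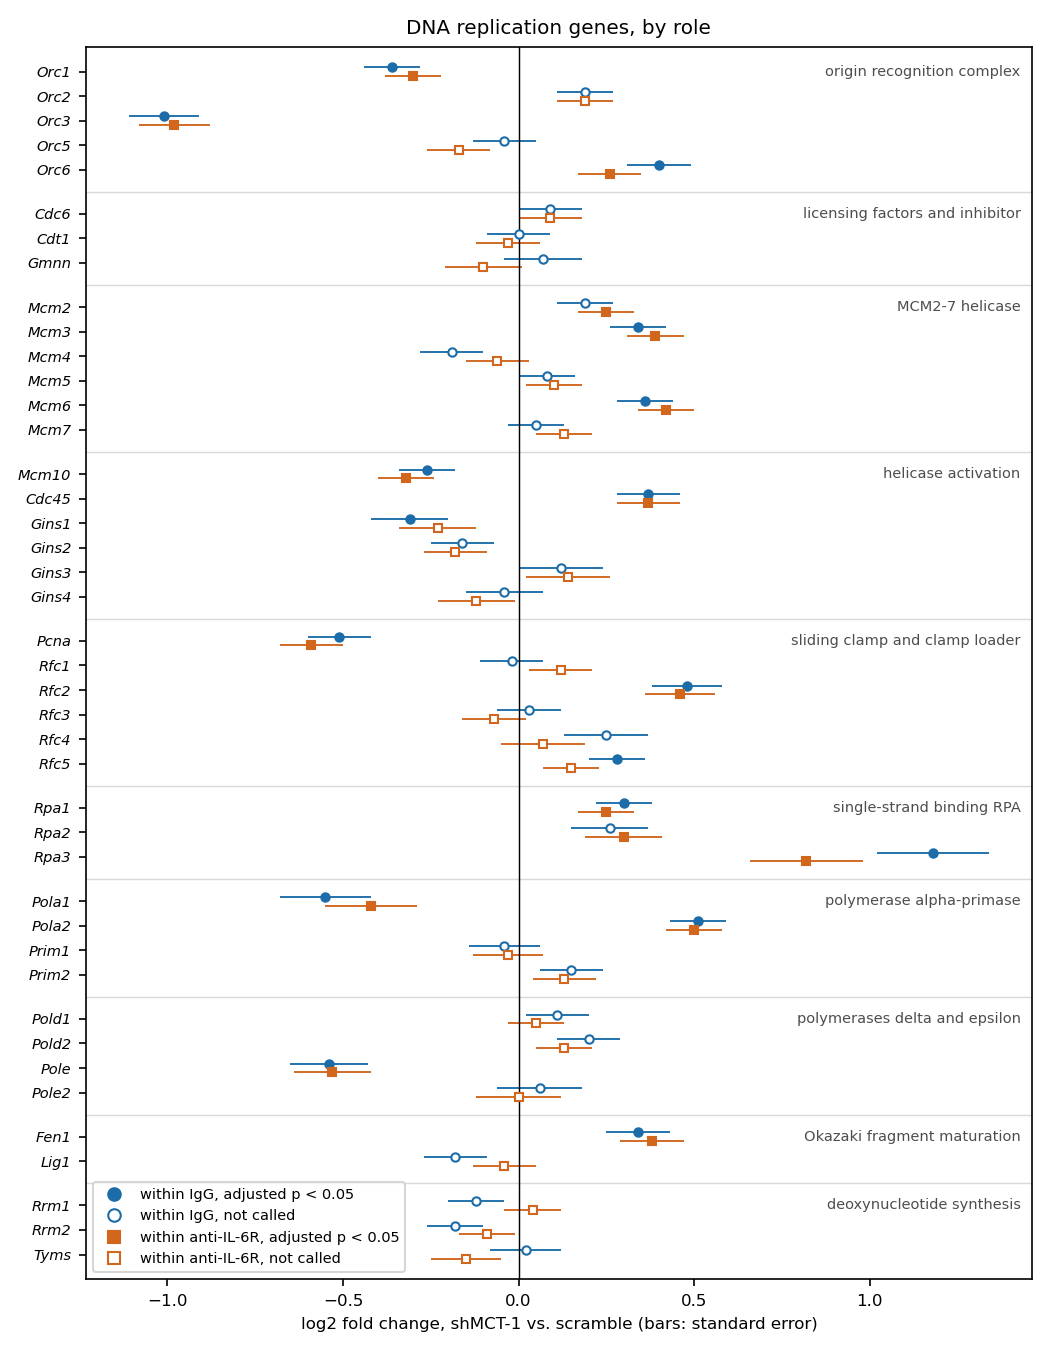
Log2 fold changes (x axis) of the 42 replication genes (rows, grouped by role) in shMCT-1 relative to scramble, within IgG (circles) and within anti-IL-6R (squares), with standard errors as bars and filled symbols for an adjusted p under 0.05. Orc3 and Rpa3 lie farthest from 0, and both treatments give the same sign for 36 of 42 genes, without the share over all tested genes.

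Reads are not equally secure for all members. For 12 of the 42 (Orc1, Orc2, Orc6, Mcm7, Gins2, Pcna, Rfc2, Rfc4, Rfc5, Pole2, Fen1 and Rrm2), the expected counts were not whole numbers in at least 7 of the 8 libraries, which means that RSEM divided reads between these genes and others. Of the 12, 10 have exons that overlap an annotated neighbor, as Gins2 does with Gse1 over 2758 bases and Fen1 with Gm10143 and Tmem258 over 2039 bases, and Pcna and Rrm2 do not. The values of these 12 are thus less certain than those of the 25 that were whole in all libraries. The strand setting of the count, which matters for antisense overlaps, was not given in the sources used here. Among the 25, Cdc45 overlaps the antisense Ufd1 over 209 bases and Lig1 the antisense Zswim9 over 247. Orc5 and Rpa1 overlap neighbors on the same strand over 90 and 44 bases.

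Promoters of the genes that moved were examined for elements known from cell cycle genes, because Orc3, Orc1, Pcna and Pola1 fell while Mcm6 and Rpa3 rose. The 250 bases before the RefSeq start (GRCm38.p6, the mm10 build) are shown for 5 of them, read on the strand of the gene. Capitals mark an E2F-type element (TTTCCCGC, TTTGGCGC, TTTCGCGC or TTTGCCGC, or the reverse complement) or a CCAAT box (CCAAT or ATTGG).
Orc3 (chr4:34614943-34615192, minus strand): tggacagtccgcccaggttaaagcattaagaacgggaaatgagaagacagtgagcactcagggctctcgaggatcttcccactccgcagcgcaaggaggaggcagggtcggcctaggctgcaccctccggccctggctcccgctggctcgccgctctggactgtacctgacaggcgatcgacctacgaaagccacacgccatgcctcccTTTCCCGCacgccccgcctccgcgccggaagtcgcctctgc
Pcna (chr2:132253181-132253430, minus strand): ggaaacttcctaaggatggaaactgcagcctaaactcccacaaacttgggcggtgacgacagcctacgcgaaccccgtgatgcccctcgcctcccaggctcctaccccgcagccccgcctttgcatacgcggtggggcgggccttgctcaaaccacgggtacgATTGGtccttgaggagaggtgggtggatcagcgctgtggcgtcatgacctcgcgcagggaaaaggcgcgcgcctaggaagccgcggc
Pola1 (chrX:93632156-93632405, minus strand): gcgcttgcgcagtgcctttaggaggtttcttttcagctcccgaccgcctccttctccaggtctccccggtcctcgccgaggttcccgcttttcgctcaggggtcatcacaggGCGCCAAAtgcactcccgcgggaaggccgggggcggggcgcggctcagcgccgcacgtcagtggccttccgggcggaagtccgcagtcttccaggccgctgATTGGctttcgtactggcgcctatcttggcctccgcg
Mcm6 (chr1:128359706-128359955, minus strand): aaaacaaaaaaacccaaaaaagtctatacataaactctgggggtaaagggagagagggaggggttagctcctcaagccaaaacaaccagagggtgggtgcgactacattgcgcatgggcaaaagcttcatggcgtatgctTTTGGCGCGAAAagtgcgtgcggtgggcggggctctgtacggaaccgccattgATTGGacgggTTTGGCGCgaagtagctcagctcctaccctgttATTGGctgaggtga
Rpa3 (chr6:8259142-8259391, minus strand): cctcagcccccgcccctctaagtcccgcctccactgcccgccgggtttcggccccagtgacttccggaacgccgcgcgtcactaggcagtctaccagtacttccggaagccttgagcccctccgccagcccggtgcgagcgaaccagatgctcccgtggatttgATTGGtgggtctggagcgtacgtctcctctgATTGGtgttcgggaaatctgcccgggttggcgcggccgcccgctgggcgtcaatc

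An E2F-type element was found within 250 bases before and 50 bases after the start in 14 of the 34 members that the promoter table held (41.2%), compared with 5.02% of 9059 tested genes and 2.6% of all 27025 genes. The element stood in 3 of the 6 members that fell (Orc1, Orc3 and Pola1), in 2 of the 13 that rose (Mcm3 and Mcm6), and in 9 of the 15 that were not called, among them Cdc6, Cdt1 and Mcm5. Genes with the element were thus found on both sides. Mcm6 held 3 copies, of which 2 overlap at 110 and 106 bases before the start, Orc3 held 1 at 41 bases before it, and no copy was found in the windows of Pcna and Rpa3. A CCAAT box was present in 64.7% of the 34 members and 43.6% of tested genes, the element TTTGAA in 14.7% and 14.1%, and GGGCGG in 73.5% and 70.8%, each counted on both strands. These motifs were chosen after the fold changes had been seen, and Gmnn, Mcm4, Gins1, Gins2, Gins4, Rfc2, Prim2 and Pole were not held in the promoter table.

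The subunits of the origin recognition complex, which marks origins and forms the platform for helicase loading, diverged. Orc3, a core subunit (ENSMUSG00000040044), was at 59.5, 65, 58 and 57.8 CPM in scramble and 29.8, 32.2, 27.4 and 31.2 CPM in shMCT-1. The highest shMCT-1 library was thus far below the lowest scramble library, and the level was 1.99-fold lower (it fell by 1.00 ± 0.06 SE on the log2 scale, adjusted p = 3.7e-07 by edgeR). Orc1, the ATPase subunit whose binding to chromatin varies with the cell cycle, was at 46.9, 50.2, 48.1 and 47.6 CPM in scramble and 38.7, 36.9, 38.2 and 39.6 CPM in shMCT-1. It fell in shMCT-1 with no overlap (log2FC -0.33 ± 0.06 SE, adjusted p = 0.000306 by edgeR), although its reads may be shared with the antisense Gm12743.

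Orc2, another core subunit, moved the other way. Its levels were 74.4, 76, 76.9 and 74.9 CPM in scramble and 84, 88, 86.1 and 87.6 CPM in shMCT-1. The groups did not overlap, but the rise was small (log2FC 0.19 ± 0.05 SE, adjusted p = 0.0054 by edgeR) and Orc2 was called in neither treatment alone. Leaving out either shMCT-1 + anti-IL-6R library gave a call within IgG (0.19 in both, adjusted p = 0.0471 and 0.0456 by edgeR), and leaving out either scramble + IgG library (0.19 in both, 0.0479 and 0.0472) or filterByExpr (0.22, 0.0469) one within anti-IL-6R. Orc6, the smallest subunit, rose from 54.4 to 58.3 CPM in scramble to 63.4 to 78.7 CPM in shMCT-1 (log2FC 0.33 ± 0.06 SE, adjusted p = 0.000659 by edgeR). Orc5 was at 34.1, 31, 32.1 and 32.4 CPM in scramble and 31.8, 31.4, 29.9 and 27.6 CPM in shMCT-1, and these overlapped (log2FC -0.10 ± 0.06 SE, adjusted p = 0.156 by edgeR), with a call without scramble + IgG replicate 2 (-0.14, adjusted p = 0.0476 by edgeR). Among the 5 subunits described here, 2 rose, 2 fell and 1 was not called. Orc4, a further subunit of the complex placed in a separate list, fell as well (log2FC -0.52 ± 0.08 SE, adjusted p = 0.000206 by edgeR). The log2 ratio of Orc1 to Orc2 went from -0.65 ± 0.03 (SD, n = 4) in scramble to -1.17 ± 0.06 in shMCT-1. The difference was -0.52 (exact two-sided permutation test p = 0.0286, adjusted 0.0457 over 8 ratios). A p of 0.0286 is the smallest that 4 libraries against 4 can give.

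The factors that load the helicase, and their inhibitor, were not called in any comparison. Cdc6, the ATPase that acts with ORC, was at 60.3, 60.5, 59.5 and 61.2 CPM in scramble and 61.4, 67.4, 61.6 and 66.3 CPM in shMCT-1 (log2FC 0.09 ± 0.06 SE, adjusted p = 0.182 by edgeR). Cdt1, which brings the MCM hexamer to the origin, was at 244.6, 225.0, 243.8 and 246.6 CPM in scramble and 235.0, 233.8, 255.6 and 225.5 CPM in shMCT-1 (log2FC -0.02 ± 0.06 SE, adjusted p = 0.826 by edgeR). Gmnn, which encodes geminin, was at 35.4, 42.7, 39.3 and 37.3 CPM in scramble and 39, 42.8, 37.4 and 34.2 CPM in shMCT-1 (log2FC -0.01 ± 0.08 SE, adjusted p = 0.884 by edgeR). The libraries of both lines overlapped for Cdt1 and Gmnn, and their fold changes were near 0 with a sign that depended on the setting.

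The balance between Cdt1 and geminin limits licensing to once per cycle. The log2 ratio of Cdt1 to Gmnn was 2.64 ± 0.17 (SD, n = 4) in scramble and 2.63 ± 0.14 in shMCT-1 (exact two-sided permutation test p = 0.971, adjusted 0.971). No shift of this ratio was detected, and its values ran from 2.40 to 2.79 in scramble and from 2.45 to 2.77 in shMCT-1. By contrast, the log2 ratio of Cdc6 to Orc1 rose from 0.32 ± 0.05 to 0.74 ± 0.09 (difference 0.42, exact permutation test p = 0.0286, adjusted 0.0457), with no overlap. Per kilobase of the principal transcript, mean levels in scramble were 109.6 CPM for Cdt1, 34.3 for Gmnn, 23.6 for Cdc6 and 16.0 for Orc1. Per kilobase of all exons these were 76.4, 26.4, 11.5 and 13.9 CPM, so the order of Cdc6 and Orc1 depends on the length used.

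**Figure D2:**
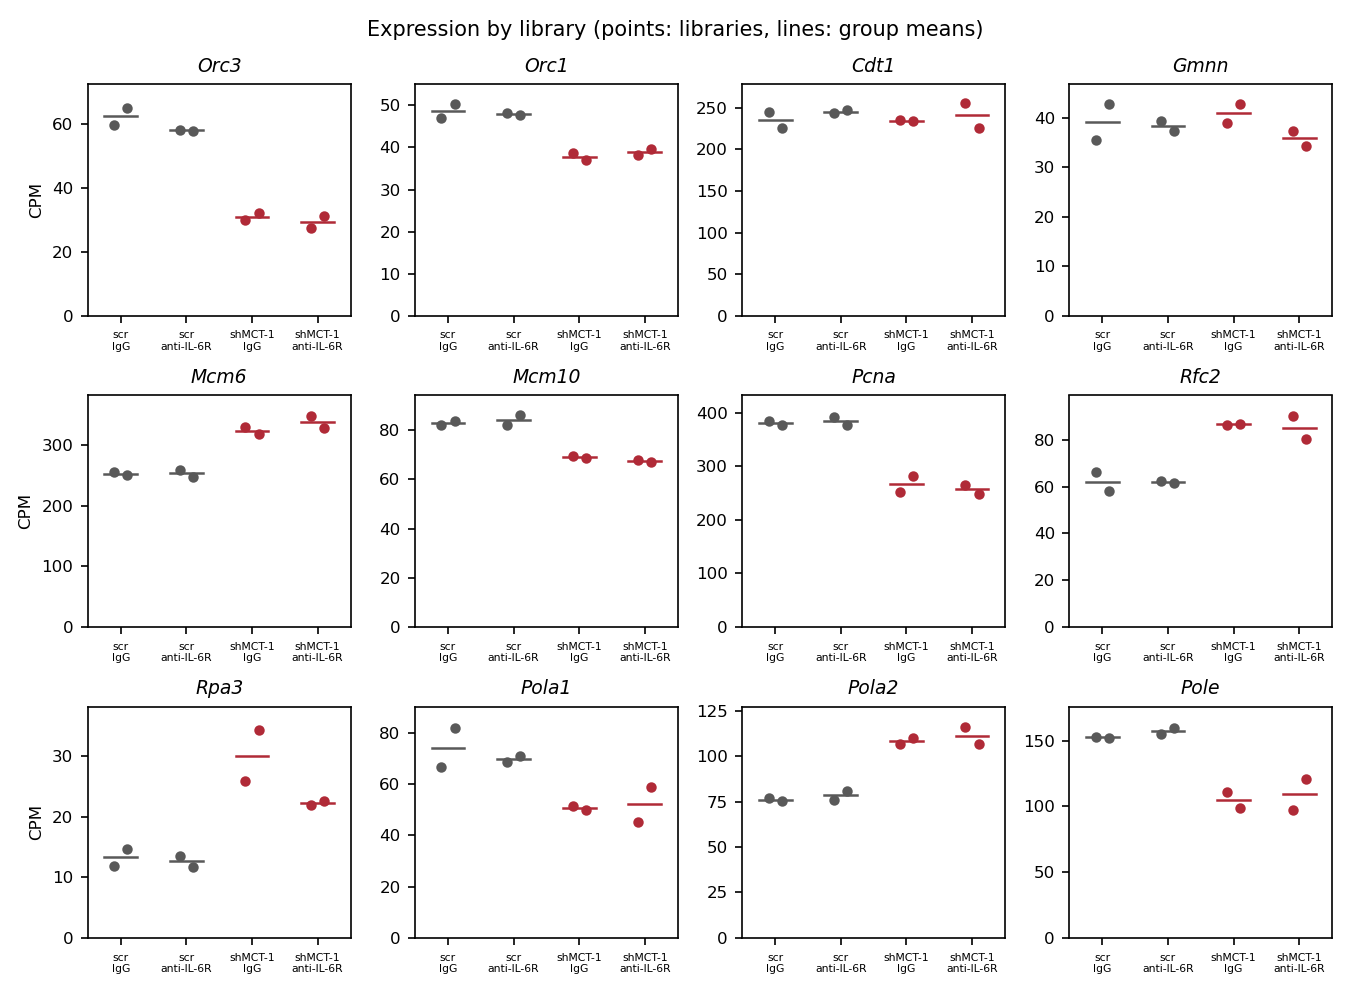
Expression in CPM (y axis, from 0) of 12 replication genes in each library (points) of the 4 groups (x axis, scr for scramble), with group means as lines. Orc3, Orc1, Mcm10, Pcna, Pola1 and Pole lie lower and Mcm6, Rfc2, Rpa3 and Pola2 higher in all 4 shMCT-1 libraries, whereas Cdt1 and Gmnn overlap.

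The MCM genes encode the 6 subunits of the helicase ring, of which 3 rose and 3 were not called. Mcm6 was at 254.8, 249.7, 258.7 and 247.6 CPM in scramble and 328.9, 318.3, 348.3 and 328.2 CPM in shMCT-1. The rise was 1.31-fold with no overlap (log2FC 0.39 ± 0.05 SE, adjusted p = 6.3e-05 by edgeR). Mcm3 rose from 254.8 to 276.5 CPM in scramble to 328.3 to 362.7 CPM in shMCT-1 (log2FC 0.36 ± 0.05 SE, adjusted p = 9.66e-05 by edgeR). Mcm2, whose product also binds histones, was at 257.5, 261.9, 267.0 and 258.1 CPM in scramble and 302.7, 291.0, 317.8 and 307.3 CPM in shMCT-1, and its rise (log2FC 0.22 ± 0.05 SE, adjusted p = 0.00238 by edgeR) was called within anti-IL-6R (log2FC 0.25 ± 0.08, adjusted p = 0.0198 by edgeR) but not within IgG (0.19 ± 0.08, adjusted p = 0.0575). The call within anti-IL-6R was lost without scramble + anti-IL-6R replicate 1 (0.28, adjusted p = 0.0939 by edgeR) or replicate 2 (0.23, 0.165), without shMCT-1 + anti-IL-6R replicate 1 (0.24, 0.0523) and with no filter (0.26, 0.0547), and with filterByExpr Mcm2 was called within IgG too (0.21, adjusted p = 0.0494).

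The other MCM subunits differed little. Mcm5 was at 465.4, 445.7, 464.7 and 461.3 CPM in scramble and 480.8, 483.3, 505.6 and 485.4 CPM in shMCT-1 (log2FC 0.09 ± 0.05), and its lines did not overlap. Mcm7 ranged over 267.4 to 283.2 CPM in scramble and 284.6 to 300.5 CPM in shMCT-1 (log2FC 0.09 ± 0.05), also without overlap, and neither was called. Mcm7 carries microRNA genes and overlaps Cops6 and Ap4m1 at its ends. Mcm4, with 215.9 to 243.3 CPM in scramble and 200.9 to 222.5 CPM in shMCT-1, had a value below 0 (log2FC -0.12 ± 0.06 SE, adjusted p = 0.0862 by edgeR) and was called lower without shMCT-1 + anti-IL-6R replicate 2 (-0.17, adjusted p = 0.0264 by edgeR) or with a filter of 1 CPM in at least 7 libraries (-0.14, adjusted p = 0.0472). The ring uses 1 copy of each subunit, and the mean scramble levels per kilobase of the principal transcript were 63.4 CPM for Mcm4, 77.5 for Mcm2, 86.8 for Mcm6, 88.7 for Mcm3, 92.5 for Mcm7 and 135.8 for Mcm5. This order depends on the length used, since per kilobase of all exons of the gene Mcm2 was lowest at 37.5 CPM, followed by Mcm6 (54.2), Mcm7 (61.9), Mcm4 (63.4), Mcm3 (71.7) and Mcm5 (115.0). Mcm5 was highest by both lengths.

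The factors that turn the loaded ring into an active helicase were split. Cdc45, the cofactor that with GINS completes the helicase, was at 40.9, 42.5, 42.8 and 38.3 CPM in scramble and 54, 53.9, 52.4 and 52.5 CPM in shMCT-1 and rose without overlap (log2FC 0.37 ± 0.06 SE, adjusted p = 0.000159 by edgeR). Mcm10, which is needed for origin melting, was at 82.2, 83.8, 82.1 and 86.2 CPM in scramble and 69.5, 68.9, 67.9 and 67.1 CPM in shMCT-1 and fell without overlap (log2FC -0.29 ± 0.05 SE, adjusted p = 0.000453 by edgeR). Their opposite course is seen in every shMCT-1 library.

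Of the 4 GINS subunits, Gins1 and Gins2 fell and Gins3 and Gins4 were not called. Gins1 was at 22.9, 23.8, 20.7 and 20.8 CPM in scramble and 18, 19.6, 19.1 and 16.3 CPM in shMCT-1 (log2FC -0.27 ± 0.07 SE, adjusted p = 0.00586 by edgeR). The decline of Gins1 was called within IgG (log2FC -0.31 ± 0.11, adjusted p = 0.031 by edgeR) and not within anti-IL-6R (-0.23 ± 0.11, adjusted p = 0.0934). The call was lost without any 1 of scramble + IgG replicate 2, both scramble + anti-IL-6R libraries or both shMCT-1 + IgG libraries (-0.37 to -0.25, adjusted p = 0.062 to 0.174 by edgeR), with no filter (-0.30, adjusted p = 0.0866) and in DESeq2 (-0.33, adjusted p = 0.0556), and without shMCT-1 + anti-IL-6R replicate 1 Gins1 was called within anti-IL-6R too (-0.33, adjusted p = 0.0386). Gins2 (56 to 58.7 CPM in scramble and 47.3 to 52.7 CPM in shMCT-1) had a smaller decline (log2FC -0.17 ± 0.06 SE, adjusted p = 0.0206 by edgeR), which lost its call without scramble + anti-IL-6R replicate 1 (-0.17, adjusted p = 0.0622) or replicate 2 (-0.17, 0.0584), shMCT-1 + IgG replicate 1 (-0.16, 0.0666) or shMCT-1 + anti-IL-6R replicate 2 (-0.14, 0.0555), and with no filter (-0.16, 0.117), all by edgeR. Gins3 (16.8 to 19.6 CPM in scramble and 18.5 to 23.4 CPM in shMCT-1, log2FC 0.13 ± 0.08 SE, adjusted p = 0.171 by edgeR) overlapped between the lines, and Gins4 was at 37, 45.7, 39 and 40.1 CPM in scramble and 39.5, 40.7, 36.9 and 36.1 CPM in shMCT-1 with overlapping groups (log2FC -0.08 ± 0.07 SE, adjusted p = 0.336 by edgeR). The log2 ratio of Mcm10 to Mcm2 fell from -1.64 ± 0.05 (SD, n = 4) to -2.16 ± 0.07 (difference -0.51, exact permutation test p = 0.0286, adjusted 0.0457).

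Pcna, the sliding clamp that tethers polymerases and many other factors to DNA, was among the genes that fell most. It was at 384.5, 377.0, 392.8 and 377.2 CPM in scramble and 252.6, 281.9, 265.3 and 248.1 CPM in shMCT-1. The highest shMCT-1 value, 281.9 CPM, was well under the lowest scramble value, 377.0 CPM, a 1.46-fold lower level (log2FC -0.55 ± 0.06 SE, adjusted p = 1.13e-05 by edgeR). Per kilobase of the principal transcript, Pcna was at 252.2 ± 4.93 CPM (SD, n = 4) in scramble and 172.6 ± 9.98 in shMCT-1. Rrm2, second to Pcna by this measure in scramble, was at 174.7 ± 3.13 and 159.3 ± 5.58. Pcna thus lay above Rrm2 in scramble, while in shMCT-1 their ranges overlapped (163.4 to 185.7 and 153.4 to 166.1 CPM per kilobase). Per kilobase of all exons, the scramble levels were 159.5 CPM for Pcna and 138.3 for Rrm2, and reads of both were divided with other genes.

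The clamp loader did not follow the clamp. Rfc2 rose from 58.1 to 66.3 CPM in scramble to 80.4 to 90.1 CPM in shMCT-1 (log2FC 0.47 ± 0.06 SE, adjusted p = 6.25e-05 by edgeR), with reads that may be shared with Lat2. Rfc5 was at 84, 87.5, 89.5 and 90.3 CPM in scramble and 100.4, 108.0, 100.2 and 99.7 CPM in shMCT-1, and its rise (log2FC 0.22 ± 0.06 SE, adjusted p = 0.00491 by edgeR) was called within IgG (log2FC 0.28 ± 0.08, adjusted p = 0.0145 by edgeR) and not within anti-IL-6R (0.15 ± 0.08, adjusted p = 0.133). Without shMCT-1 + IgG replicate 2 the value within IgG was 0.23, with an adjusted p of 0.117.

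Rfc1, the large subunit that opens the clamp, was at 137.1, 156.0, 140.4 and 140.9 CPM in scramble and 144.2, 145.8, 145.3 and 160.4 CPM in shMCT-1 (log2FC 0.05 ± 0.06 SE, adjusted p = 0.472 by edgeR). Rfc4 was at 19.4, 16.5, 19.7 and 18.4 CPM in scramble and 21.1, 21.5, 21.6 and 18.6 CPM in shMCT-1 (log2FC 0.16 ± 0.08 SE, adjusted p = 0.105 by edgeR), and Rfc3 at 47.7, 43.5, 47.5 and 44.9 CPM in scramble and 45.3, 48, 43.5 and 44.3 CPM in shMCT-1 (log2FC -0.02 ± 0.06 SE, adjusted p = 0.768 by edgeR). Rfc4 was called across treatments without shMCT-1 + anti-IL-6R replicate 2 (0.22, adjusted p = 0.029 by edgeR) and within IgG without scramble + IgG replicate 1 (0.37, adjusted p = 0.0407). These 3 overlapped between the lines. The log2 ratio of Rfc1 to Rfc4 was 2.96 ± 0.20 (SD, n = 4) in scramble and 2.85 ± 0.17 in shMCT-1 (exact permutation test p = 0.457, adjusted 0.522).

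All 3 subunits of replication protein A, which coats single-stranded DNA, were higher in shMCT-1. Rpa3, the smallest subunit, was at 11.9, 14.7, 13.5 and 11.7 CPM in scramble and 25.9, 34.2, 21.9 and 22.6 CPM in shMCT-1. It had the largest rise of the 42, 2-fold (log2FC 1.00 ± 0.12 SE, adjusted p = 2.51e-05 by edgeR), and the lowest shMCT-1 library was above the highest scramble library. Rpa2, which is phosphorylated in response to replication stress, was at 65.7, 52.5, 64 and 61.8 CPM in scramble and 70.4, 71.7, 80.2 and 74.5 CPM in shMCT-1 (log2FC 0.28 ± 0.07 SE, adjusted p = 0.00505 by edgeR) and was called within anti-IL-6R (log2FC 0.30 ± 0.11, adjusted p = 0.0417 by edgeR) but not within IgG (0.26 ± 0.11, adjusted p = 0.0644). The call of Rpa2 within anti-IL-6R was lost without any 1 of the scramble + anti-IL-6R libraries, the shMCT-1 + IgG libraries or shMCT-1 + anti-IL-6R replicate 1 (0.26 to 0.32, adjusted p = 0.067 to 0.192 by edgeR) and with the filter of 7 libraries (0.27, adjusted p = 0.0577), and within IgG Rpa2 was called without scramble + IgG replicate 1 (0.44, adjusted p = 0.0061) and with the replicate number as a block (0.27, adjusted p = 0.0435). Rpa1, the main DNA-binding subunit, was at 177.4, 168.7, 175.6 and 176.5 CPM in scramble and 210.9, 214.6, 214.8 and 202.7 CPM in shMCT-1 (log2FC 0.27 ± 0.05 SE, adjusted p = 0.000695 by edgeR).

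The subunits of polymerase alpha-primase, which starts each new strand, went in opposite directions. Pola1, the catalytic subunit, was at 66.8, 81.8, 68.5 and 71.1 CPM in scramble and 51.5, 49.8, 45.3 and 58.9 CPM in shMCT-1. The lines did not overlap, and Pola1 fell 1.4-fold in shMCT-1 (log2FC -0.49 ± 0.09 SE, adjusted p = 0.000686 by edgeR). Pola2, the accessory subunit, was at 76.9, 75.2, 76.1 and 81 CPM in scramble and 106.9, 109.9, 115.8 and 106.6 CPM in shMCT-1. Here the order was reversed, with a 1.42-fold higher level in shMCT-1 (log2FC 0.51 ± 0.05 SE, adjusted p = 1.26e-05 by edgeR).

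The primase subunits moved less. Prim1 was at 53.7, 57.2, 51.6 and 51 CPM in scramble and 48.6, 59.6, 49.6 and 50.9 CPM in shMCT-1, with overlap (log2FC -0.03 ± 0.07 SE, adjusted p = 0.696 by edgeR). Prim2 was 30.6 to 33.3 CPM in scramble and 35 to 35.8 CPM in shMCT-1, a small rise (log2FC 0.14 ± 0.06 SE, adjusted p = 0.0442 by edgeR). Prim2 lost its call when any 1 library other than scramble + IgG replicate 2 was left out (0.11 to 0.15, adjusted p = 0.0623 to 0.129 by edgeR). The call was also lost with RLE factors (0.13, adjusted p = 0.0644), no filter (0.15, 0.154), the filter of 7 libraries (0.12, 0.0772) and thinning (0.15, 0.0534), and in DESeq2 (0.13, adjusted p = 0.11). The log2 ratio of Pola1 to Prim1 fell from 0.43 ± 0.09 (SD, n = 4) to -0.02 ± 0.21 (difference -0.45, exact permutation test p = 0.0286, adjusted 0.0457), and the shMCT-1 libraries spread more than the scramble libraries.

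For the polymerases that extend the strands, 1 of the catalytic subunits fell. Pole, the catalytic subunit of the leading-strand polymerase epsilon, was at 152.9, 152.1, 155.0 and 159.7 CPM in scramble and 110.6, 99, 97 and 121.0 CPM in shMCT-1 and fell 1.45-fold without overlap (log2FC -0.54 ± 0.07 SE, adjusted p = 6.76e-05 by edgeR). Pold1, the catalytic subunit of polymerase delta, was at 150.9, 141.1, 150.4 and 151.3 CPM in scramble and 154.5, 161.6, 163.7 and 148.5 CPM in shMCT-1 (log2FC 0.08 ± 0.06 SE, adjusted p = 0.215 by edgeR). The log2 ratio of Pole to Pold1 fell from 0.06 ± 0.04 (SD, n = 4) to -0.56 ± 0.21 (difference -0.62, exact permutation test p = 0.0286, adjusted 0.0457).

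Pole2 and Pold2 behaved differently from Pole. Pole3, a further subunit of polymerase epsilon placed in a separate list, fell as Pole did (log2FC -0.75 across treatments). Pole2 was at 29.6, 25.1, 26.7 and 23.9 CPM in scramble and 26.1, 31, 25.3 and 25.2 CPM in shMCT-1 (log2FC 0.03 ± 0.08 SE, adjusted p = 0.762 by edgeR), with overlapping groups. Pold2 was 131.1 to 147.3 CPM in scramble and 155.3 to 162.1 CPM in shMCT-1, a small rise (log2FC 0.16 ± 0.06 SE, adjusted p = 0.0231 by edgeR) that lost its call without scramble + anti-IL-6R replicate 2 (0.16, adjusted p = 0.0659), shMCT-1 + IgG replicate 1 (0.15, adjusted p = 0.07) or shMCT-1 + IgG replicate 2 (0.16, adjusted p = 0.056), and that was called within IgG without scramble + IgG replicate 1 (0.28, adjusted p = 0.0229 by edgeR). Fen1, the nuclease that trims Okazaki fragments, was at 98.1, 87.1, 93 and 90.1 CPM in scramble and 119.0, 115.5, 122.0 and 116.0 CPM in shMCT-1 and rose without overlap (log2FC 0.36 ± 0.06 SE, adjusted p = 0.000215 by edgeR), although most of its exonic length overlaps neighbors. Lig1, the ligase that seals the fragments, was at 207.5, 240.1, 210.7 and 203.7 CPM in scramble and 205.6, 190.2, 205.2 and 198.4 CPM in shMCT-1, with overlap (log2FC -0.11 ± 0.06 SE, adjusted p = 0.158 by edgeR), and was called within IgG without scramble + IgG replicate 1 (-0.28, adjusted p = 0.0259 by edgeR).

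Genes of deoxynucleotide synthesis were close to level between the lines. Rrm2, the small subunit of ribonucleotide reductase that is made in S phase, was at 391.0, 377.4, 386.8 and 377.4 CPM in scramble and 343.1, 336.4, 353.3 and 364.3 CPM in shMCT-1. Its decline was the smallest of those called (log2FC -0.13 ± 0.05 SE, adjusted p = 0.0371 by edgeR) and lost its call when any 1 library other than scramble + IgG replicate 2 or shMCT-1 + anti-IL-6R replicate 2 was left out (-0.15 to -0.12, adjusted p = 0.0607 to 0.105 by edgeR). The call was also lost with no filter (-0.12, adjusted p = 0.203 by edgeR) and with filterByExpr (-0.11, 0.0762). Rrm1, the large subunit, was at 302.3, 340.5, 296.5 and 299.1 CPM in scramble and 292.9, 298.2, 307.6 and 303.0 CPM in shMCT-1 (log2FC -0.04 ± 0.06 SE, adjusted p = 0.545 by edgeR), and Tyms, the thymidylate synthase, was 74.5 to 83.4 CPM in scramble and 69.4 to 82.4 CPM in shMCT-1 (log2FC -0.07 ± 0.07 SE, adjusted p = 0.403 by edgeR). The log2 ratio of Rrm2 to Rrm1 was 0.31 ± 0.11 (SD, n = 4) in scramble and 0.22 ± 0.04 in shMCT-1 (exact permutation test p = 0.171, adjusted 0.229).

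**Figure D3:**
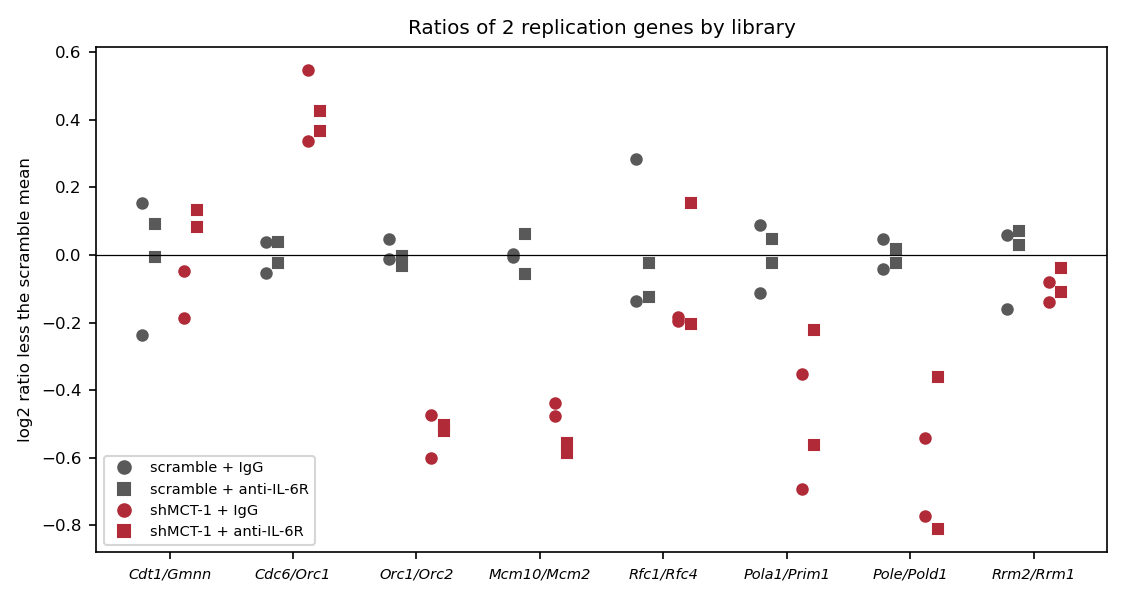
Log2 ratio of 2 replication genes in each library, less the mean of the 4 scramble libraries (y axis), for the 8 ratios examined (x axis), in scramble (grey) and shMCT-1 (red) with IgG (circles) or anti-IL-6R (squares). Of these, 5 separate the lines without overlap, by 0.42 to -0.62, and Cdt1/Gmnn, Rfc1/Rfc4 and Rrm2/Rrm1 overlap.

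Of the 8 ratios, 5 separated the 4 shMCT-1 libraries from the 4 scramble libraries, and each of the 5 had the same sign within IgG and within anti-IL-6R. The share over ratios of other gene pairs was not computed, and 64.4% of single tested genes did not overlap between the lines. For Cdc6/Orc1, Orc1/Orc2 and Mcm10/Mcm2, both genes were already apart between the lines without overlap, in opposite directions. Separation of these ratios was thus fixed by the single-gene levels, and their permutation test adds no further evidence. For Pola1/Prim1 and Pole/Pold1, the first gene was already apart between the lines without overlap. Prim1 and Pold1 overlapped and were not called, so these ratios mostly repeat the declines of Pola1 and Pole. Ratios within a library do not depend on its scaling. With any library left out, 3 libraries against 4 could not reach an adjusted p under 0.05.

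The position of the genes on the chromosomes was compared with their fold changes across treatments, in coordinates of GENCODE release M21 on GRCm38. For each member, the median was taken over the other tested genes within 5 Mb of its start, 18 to 190 genes. The sign of the member matched that of its neighbors in 34 of 42 cases, and in 22 of the 24 members called, compared with 63.0% of 12678 tested genes and 67.0% of called genes. After the median of the neighbors was subtracted, 19 of the 24 kept their sign, a count given without the share over all called genes. The median size of the change was 0.17 before and 0.16 after this step, against 0.40 and 0.36 for tested genes of all expression levels.

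Some of the largest changes were shared with the region. Rpa3 (chr6:8255936-8259173, minus strand) had a log2FC of 1.00 where the 25 neighbors had a median of 0.89. Pcna (chr2:132249162-132253314, minus strand) had -0.55 where 71 neighbors had -0.50, and Mcm10 and Gins1 on the same chromosome were also negative, with a median of -0.37 over all 1001 tested genes of chromosome 2. On chromosome 1, whose median was 0.21, Orc2, Mcm3, Mcm6 and Prim2 were all positive. Orc3 (chr4:34570796-34614944, minus strand) fell by 1.00 on the log2 scale, against -0.55 for 21 neighbors, and Orc1, farther along chromosome 4, had -0.33 against -0.42 for 45 neighbors. The part of the region in the change of each gene was not tested.

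Other members differed from their surroundings. Pole (chr5:110286306-110337474, plus strand) had -0.54 where 92 neighbors had 0.11, and Pola1 (chrX:93304767-93632155, minus strand) had -0.49 where 18 neighbors had 0.07. Pola2 (chr19:5940542-5964202, minus strand) had 0.51 against 0.12. Prim1 stayed at -0.03 among 75 neighbors with 0.54, Pole2 at 0.03 among 59 neighbors with -0.43, and Gmnn at -0.01 among 70 neighbors with -0.41.

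**Figure D4:**
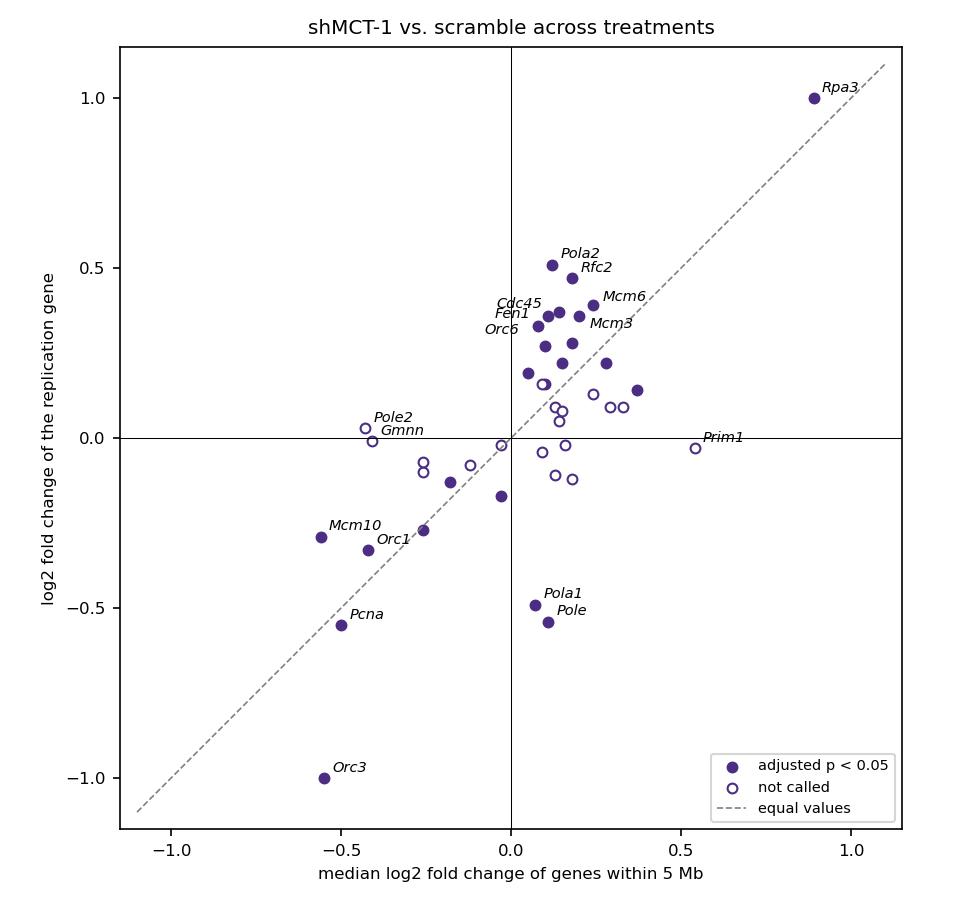
Log2 fold change of each of the 42 replication genes in shMCT-1 relative to scramble across treatments (y axis) against the median log2 fold change of the other tested genes within 5 Mb (x axis), with filled symbols for an adjusted p under 0.05 and a dashed line of equal values. Rpa3 and Pcna lie near the line, Pole and Pola1 lie below it by 0.64 and 0.55, and Prim1 and Gmnn stay near 0 in regions with medians of 0.54 and -0.41.

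None of the 42 genes was called between anti-IL-6R and IgG. By edgeR's quasi-likelihood test 0 were called in scramble, 0 in shMCT-1 and 0 across both lines, as were 0 of all 12704 tested genes, and DESeq2 called 0 of the 42 in each. At an unadjusted p under 0.05, 0 of the 42 passed in scramble, 1 in shMCT-1 and 1 across lines, where 1.31%, 3.98% and 2.79% of tested genes did. Fold changes of the 42 ranged from -0.17 to 0.09 on the log2 scale in scramble, with a median SE of 0.09.

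The gene that passed unadjusted was Rpa3. In shMCT-1 it was at 25.9 and 34.2 CPM with IgG and at 21.9 and 22.6 CPM with anti-IL-6R (log2FC -0.43 ± 0.15, unadjusted p = 0.0177 and adjusted p = 1 by edgeR). In scramble its values were 11.9 and 14.7 CPM with IgG and 13.5 and 11.7 CPM with anti-IL-6R (log2FC -0.08 ± 0.16), and the difference between these 2 effects was not called (-0.36 ± 0.22, unadjusted p = 0.136). In shMCT-1 the 6 MCM subunits had values of 0.04 to 0.11 and the 6 activation factors values of -0.15 to -0.04, none of them with an unadjusted p under 0.05.

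Of the summed squares of the log2 CPM of the 42 genes around their means, 83.3% lay between the lines, 3.92% between the treatments, 1.9% in the interaction and 10.8% between replicates, or 2.71% for each of the 4 replicate degrees of freedom. The same shares over all tested genes were 80.8%, 2.96%, 3.33% and 12.9%. The median SD between replicates was 0.07 on the log2 scale for the 42 and 0.13 for all tested genes.

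Genes that work beside the 42 were taken from lists by function and compared across treatments, where 35.0% of tested genes were higher and 34.0% lower. Of 5 other subunits of the same complexes, 0 rose and 2 fell, namely Pole3 (log2FC -0.75 ± 0.06) and Orc4 (-0.52 ± 0.08), which are partners of Pole and Orc3. Of 12 origin firing factors and kinases, 2 rose and 6 fell, led by Ticrr (-0.63 ± 0.09), the partner of TOPBP1, and Recql4 (-0.46 ± 0.06). Of 8 genes of licensing turnover, 1 rose and 4 fell, with the CDK inhibitors Cdkn1a up (0.58 ± 0.07) and Cdkn1b down (-0.39 ± 0.06).

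Of 18 genes of fork protection and alternative clamp loaders, 4 rose and 9 fell, led by Top1, the topoisomerase that relieves supercoils (-0.79 ± 0.10), and Atad5, which unloads PCNA (-0.71 ± 0.12). Of 9 checkpoint genes, 1 rose and 6 fell, with the kinase Atr at 63.8 to 72.4 CPM in scramble and 31.1 to 36.4 CPM in shMCT-1 (-1.04 ± 0.07) and Etaa1, an activator of ATR, at -0.66 ± 0.09. Of 8 further genes of nucleotide supply, 4 rose and 2 fell. Of 9 genes of replication-coupled chromatin, 0 rose and 4 fell, led by Ssrp1 (-0.34 ± 0.07) and Uhrf1 (-0.31 ± 0.05).

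Regulators and mitotic genes were mostly on the lower side as well. Of 13 E2F factors and pocket proteins, 1 rose and 9 fell. E2f6, a repressor of the family, had 556 to 873 counts in the scramble libraries and 0 in every shMCT-1 library, at least 164-fold lower with a floor of 3 counts per library, and Rbl1 had a log2FC of -0.91 ± 0.06. Of 16 mitotic genes, 3 rose and 9 fell, with Mki67, the proliferation marker, at 865.3 to 1106.0 CPM in scramble and 317.1 to 511.5 CPM in shMCT-1 (-1.27 ± 0.14) and Cenpf at -0.82 ± 0.11. Declines outnumbered rises in 8 of these 9 lists, in contrast to the 15 rises and 9 declines among the 42 replication genes, and this contrast was not tested.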

How the data were processed

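The authors deposited expected counts per gene, made by RSEM after trimming with cutadapt 1.18 and alignment with STAR 2.7.0d to mm10 with GENCODE release M19 transcripts. Duplicate removal by molecular identifiers and the strand setting were not given in the sources used here. Expected counts were rounded to whole numbers (29.6% of values above 0 were not whole). The 12704 of 54532 genes above 1 CPM in 2 or more libraries were scaled by TMM and tested by quasi-likelihood in edgeR 4.0.16 (R 4.3.3), with 4 group means, or with line plus treatment for effects across treatments. Adjusted p-values (Benjamini-Hochberg, all tested genes) under 0.05 were called, and the SE is the fold change divided by the root of F. A level of 1 CPM stood for 19.8 to 33.1 counts. Log2 ratios of 2 members were compared by exact permutation of 4 against 4 libraries.

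Groups came from the sample labels, and 54495 gene identifiers were found in GENCODE release M21. Members and lists were chosen with earlier results of these data known. All members are named, and values in each library are given at least for the largest and the smallest change of each role, members called in 1 treatment only and members of ratios. Up to 2 called genes with the largest change are named per list, except for 1 list, whose genes are not reported by name here. The edgeR fits were tested on simulated data with 200 of 12704 genes changed, far fewer than were called here. Of 1.5-fold changes, 43.5% were recovered within IgG, 42% within anti-IL-6R and 78.5% across treatments. A gene not called within a treatment may thus still differ between the lines. Alternatives were DESeq2 1.42.0, RLE factors, other filters, the exact test of edgeR, fits of 4 libraries, thinning, a replicate block, omission of mitochondrial genes and omission of each library. A background of like expression and counts without members of shared reads were added after seeing the data.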

Additional observations from a re-analysis of the deposited data

How the results depend on the processing

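The number of replication genes called across treatments was 20 to 25 with any library left out, 21 with no filter and 23 with DESeq2, and that within IgG was 13 to 21 and 15 to 18 in the other fits. Within anti-IL-6R it was 8 to 18 with any library left out, with the lowest values of 8 and 11 without a scramble + anti-IL-6R library, and 13 to 18 otherwise. Without the members of shared reads, 11 of the 17 calls within IgG and 12 of the 17 within anti-IL-6R were left, by construction fewer. At an unadjusted p under 0.05, anti-IL-6R gave 1 member in shMCT-1 and 1 across backgrounds. With no filter the share of all tested genes called across treatments dropped from 69.0% to 37.1%, as more genes of low counts were tested. The members' median log2FC was 0.00 to 0.12 within IgG and 0.03 to 0.07 within anti-IL-6R with a library left out, and 0.03 within anti-IL-6R after subtraction of the chromosome median or of the median within 5 Mb.

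The replicate numbers did not pair the libraries, since deviations of same-numbered libraries correlated with r of -0.0797 to 0.106. With the number as a replicate block, 18 members were called within IgG, 17 within anti-IL-6R and 24 across treatments, and 0 for anti-IL-6R in either line.

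With 3 libraries against 4, no ratio could pass (adjusted p of at least 0.0762). The difference was then 0.38 to 0.44 for Cdc6/Orc1, -0.54 to -0.50 for Orc1/Orc2, -0.54 to -0.49 for Mcm10/Mcm2, -0.53 to -0.37 for Pola1/Prim1, -0.71 to -0.56 for Pole/Pold1 and -0.08 to 0.06 for Cdt1/Gmnn.

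The members that changed sign under an alternative were not called in that comparison. With any library left out, the log2FC within IgG was -0.11 to 0.03 for Orc5, -0.06 to 0.06 for Cdt1, -0.06 to 0.21 for Gmnn, -0.05 to 0.27 for Gins3, -0.19 to 0.12 for Gins4, -0.11 to 0.08 for Rfc1, -0.03 to 0.10 for Rfc3, -0.19 to 0.10 for Prim1, -0.07 to 0.19 for Pole2 and -0.05 to 0.09 for Tyms. With any library left out, the log2FC within anti-IL-6R was -0.11 to 0.07 for Cdt1, -0.12 to 0.03 for Mcm4, -0.02 to 0.19 for Rfc4, -0.04 to 0.00 for Prim1, -0.01 to 0.13 for Pold1 and -0.08 to 0.08 for Pole2. With any library left out, the log2FC across treatments was -0.05 to 0.02 for Cdt1, -0.08 to 0.03 for Gmnn, -0.06 to 0.01 for Rfc3, -0.09 to 0.03 for Prim1, -0.03 to 0.07 for Pole2 and -0.06 to 0.01 for Rrm1. By no filter it was 0.01 for Cdt1 within IgG and for Pole2 within anti-IL-6R, and by filterByExpr 0.01 for Cdt1 and 0.00 for Rfc1 within IgG, 0.02 for Pole2 within anti-IL-6R, and 0.00 for Cdt1 and 0.01 for Gmnn across treatments. RLE factors and DESeq2 gave 0.00 for Tyms within IgG, and thinning gave 0.02 for Pole2 within anti-IL-6R and 0.00 for Gmnn across treatments. The cause of these changes was not tested. Of the values of members under alternatives, 714 of 756 within IgG, 712 of 756 within anti-IL-6R and 627 of 672 across treatments kept their sign and their side of the threshold.

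The number of libraries limits what was detectable within a treatment, where the lowest level of 1 CPM stood for 19.8 to 33.1 counts a library.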
